A study of Homo sapiens with 48 samples.

Results

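The 55 genes described here encode the machinery that carries a cell through mitosis: the mitotic kinases and cyclins, the kinetochore, the spindle checkpoint, the motors of the spindle, the cytokinesis apparatus, the condensins and a pair of transcription factors that drive their expression. They were chosen by name, as the rows of the deposited count table whose symbol is on a list of 55 symbols, out of 58302 genes in that table. All 55 were found, and all 55 passed the filter on low counts in every comparison, with 146 counts at the lowest (CDC25C) and 35293 at the highest (MYBL2) in any library. By role, 7 members are CDK1, mitotic cyclins and CDC25 phosphatases, 6 are mitotic kinases and the chromosomal passenger complex, 5 belong to the spindle checkpoint, 5 to anaphase onset and cohesion, 8 to the kinetochore and centromere, 12 are kinesins and spindle assembly factors, 4 act in the midzone and cytokinesis, 6 are condensin subunits, topoisomerase and chromosome surface proteins, and 2 are transcription factors.

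Genes of this kind are transcribed in a wave that peaks in G2 and mitosis. Complexes built on the MuvB core repress them in resting cells, and the same core with B-MYB (MYBL2) and FOXM1 activates them in cycling cells, largely through a promoter element called the CHR and through CCAAT boxes. In a culture of dividing tumor cells their RNA level therefore moves with the share of cells in late cell cycle, and they are widely used as a proliferation signature in myeloma.

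RNA was sequenced from AMO1, a human multiple myeloma (plasmacytoma) cell line, in which doxycycline (Dox, 0.2 µg/ml) switches on shRNAs. The shIRE1 cells carry shRNAs against ERN1, the gene of the ER stress sensor IRE1 (genotype label IRE1 sh7,8,9), in clones 1 and 3. The shXBP1 cells carry shRNAs against XBP1, the transcription factor whose mRNA IRE1 splices (XBP1 sh4,6,7), in clones 1 and 18. Each line is a single-cell clone with 3 shRNAs in a piggyBac vector, and each was sampled at 0, 24, 48 and 72 h of Dox with 3 biological replicates, for 16 groups and 48 libraries. The 0 h libraries of a clone are its untreated control, and non-targeting shRNA controls were not analysed here. What Dox alone, or an shRNA of any target, does to these genes therefore cannot be told apart from silencing of the target. The p-values rest on the spread between flasks of the same group, also where clones or targets are compared, and 2 clones stand for each target.

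Total counts ran from 19177855 to 40767202 per library. All 8 plasma cell markers stood at 1 CPM (counts scaled to library size) or more in every library, among them SDC1 at 5110 to 15300 CPM, whereas 3 of 4 B cell markers, 2 of 4 T cell markers and 4 of 4 myeloid markers stayed below 1 CPM throughout (CD3E, a chain of the T cell receptor complex, was at 4.59 to 17.3 CPM). ERN1 itself fell in shIRE1 clone 3 from 421 to 451 CPM at 0 h to 144 to 146 CPM at 24 h, and in clone 1 from 150 to 154 CPM to 125 to 129 CPM at 24 h and 92.5 to 103 CPM at 48 h. At 0 h ERN1 was 2.87-fold higher in clone 3 than in clone 1. Clone 3 after 24 h of Dox thus stood close to untreated clone 1, and the fall of ERN1 RNA by 24 h was much smaller in clone 1. XBP1 fell from 159 to 173 CPM to 42.5 to 49.2 CPM at 24 h in shXBP1 clone 1 and from 166 to 178 CPM to 60.3 to 64.7 CPM in clone 18.

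Several libraries went against their clone labels. The 2 shIRE1 clones differ by at least 1 on the log2 scale at 0 and 24 h in 16 marker genes, and a library can be placed between clone 3 (position 0) and clone 1 (position 1) by them. The libraries labelled shIRE1 clone 1, 72 h stood at 0.128 to 0.322, with clone 3, and those labelled shIRE1 clone 3, 48 h at 1.16 to 1.24, with clone 1. TENM3 shows it: 8.51 to 10.2 CPM in clone 1 and 0.589 to 0.881 CPM in clone 3 at 0 h, but 1.69 to 1.77 CPM in the libraries labelled clone 1, 72 h and 16.3 to 18.2 CPM in those labelled clone 3, 48 h. By contrast IRF4, a plasma cell transcription factor, paired the libraries by their labels, at 545 to 611 CPM in those labelled clone 1 at 48 and 72 h and at 303 to 359 CPM in those labelled clone 3 at these times. The libraries labelled clone 1, 48 h stood at 1.06 to 1.13 and those labelled clone 3, 72 h at 0.177 to 0.259. By these markers the 2 clones thus stood alike at 48 h and alike at 72 h. Whether clone or time is mislabelled, or whether the markers moved with time, was not tested. The labels were kept, and the comparisons whose groups hold none of these 6 libraries are 24 h in both shIRE1 clones, 48 h in clone 1 and 72 h in clone 3. The 6 libraries are still part of the fits of their labelled clones, and so of the spread behind those SEs and p-values. Among the shXBP1 libraries, clone 18, 72 h, replicate 3 stood with clone 1 at 458 of 471 marker genes, against 7 or fewer in the other clone 18 libraries.

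All 55 genes fell in shIRE1 clone 1 by 24 h of Dox and 54 of 55 in clone 3, where CDC25B, an activator of CDK1, was the exception (edgeR quasi-likelihood test, adjusted p under 0.05). Of all genes tested, 29.0% were called lower in clone 1 and 23.3% in clone 3. The median change of the members was -1.52 on the log2 scale in clone 1 and -1.23 in clone 3, against medians of all genes of 0.04 and 0.03. The summed level of the 55 genes, which weights abundant transcripts most, went from 9670 ± 240 CPM (SD, n = 3) to 3470 ± 78.1 CPM in clone 1, or 35.9% of the 0 h level, and from 7570 ± 359 CPM to 3490 ± 65.1 CPM in clone 3, or 46.1%. In bulk RNA, fewer cells in G2 and mitosis and less of these RNAs per cell cannot be told apart.

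**Figure D1:**
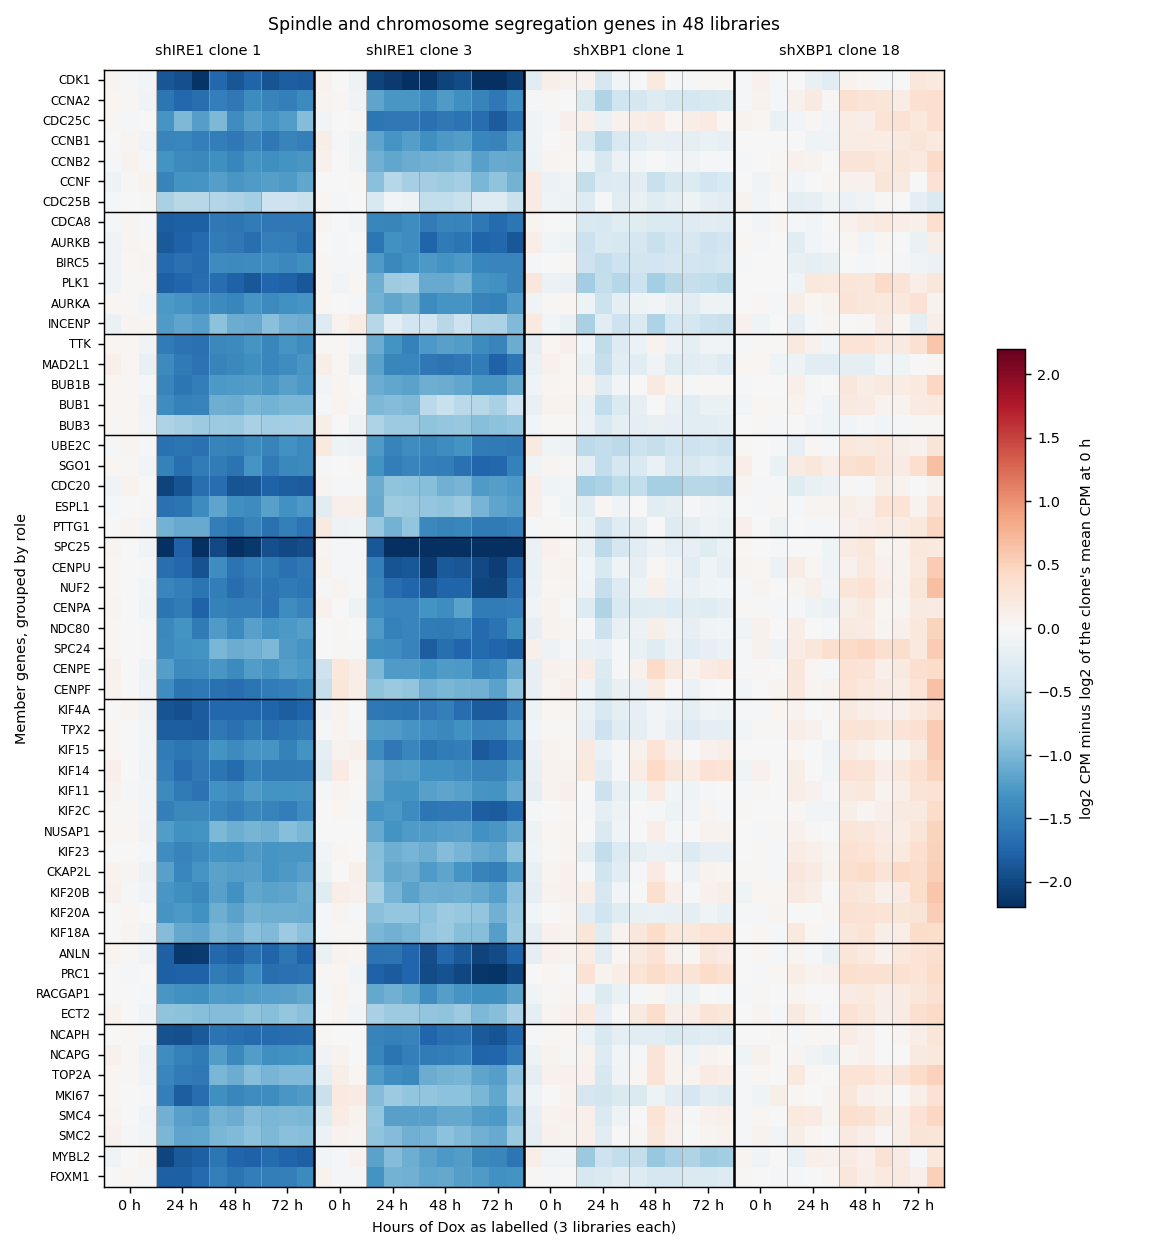
Change of each of the 55 genes (rows, grouped by role) in each of the 48 libraries (columns, by clone and labelled hours of Dox), as log2 CPM minus the log2 of the clone's mean CPM at 0 h, with blue for lower and red for higher. Both shIRE1 clones turn blue in all roles at 24 h, shXBP1 clone 1 is pale blue for part of the genes and shXBP1 clone 18 is pale red at 48 and 72 h.

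Many promoters of the members hold the elements named above. Of the 47 members with a promoter window, 36 held a CHR, 36 a CCAAT box and 28 both. The 7 stretches printed were chosen by name as examples and do not stand for all members. RefSeq promoter windows on GRCh38.p14, from 250 bases before to 50 after a transcription start, were found for 47 of 55 members (59 windows). AURKA, BIRC5, BUB3, TTK, UBE2C, TPX2, RACGAP1 and FOXM1 had no entry. The CHR was searched as TTTGAA or TTCGAA and the CCAAT box as CCAAT, on both strands. The 110 bases that end just before the start follow for 7 members with 1 start in the table, 5′ to 3′ along the gene, with each CHR and each CCAAT box in capitals (ATTGG is CCAAT read on the other strand). They lie at chr15:59105036-59105145 (CCNB2, plus strand), chr16:23678779-23678888 (PLK1, plus), chr1:43358871-43358980 (CDC20, plus), chr15:90994536-90994645 (PRC1, minus), chrX:70289994-70290103 (KIF4A, plus), chr7:36389752-36389861 (ANLN, plus) and chr20:43667004-43667113 (MYBL2, plus).
CCNB2: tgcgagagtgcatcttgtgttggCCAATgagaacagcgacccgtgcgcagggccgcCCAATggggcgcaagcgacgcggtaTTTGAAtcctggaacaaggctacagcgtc
PLK1: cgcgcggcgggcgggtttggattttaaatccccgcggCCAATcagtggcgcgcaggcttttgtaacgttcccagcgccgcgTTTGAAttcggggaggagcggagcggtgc
CDC20: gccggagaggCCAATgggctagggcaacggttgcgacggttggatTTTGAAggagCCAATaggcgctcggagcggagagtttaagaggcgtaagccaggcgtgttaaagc
PRC1: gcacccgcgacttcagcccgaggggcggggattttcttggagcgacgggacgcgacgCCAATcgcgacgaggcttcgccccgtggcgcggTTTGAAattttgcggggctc
KIF4A: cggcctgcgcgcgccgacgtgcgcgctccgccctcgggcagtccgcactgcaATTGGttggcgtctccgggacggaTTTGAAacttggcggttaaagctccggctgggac
ANLN: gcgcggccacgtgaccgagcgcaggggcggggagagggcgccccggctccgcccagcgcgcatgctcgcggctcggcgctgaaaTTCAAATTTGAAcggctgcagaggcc
MYBL2: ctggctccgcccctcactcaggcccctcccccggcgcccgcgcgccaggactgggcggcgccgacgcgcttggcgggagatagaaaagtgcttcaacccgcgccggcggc

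The stretches of CCNB2, PLK1, CDC20, PRC1 and KIF4A hold a CHR and 1 or 2 CCAAT boxes, that of ANLN holds a pair of adjoining CHR matches on opposite strands and no CCAAT box, and that of MYBL2 holds neither. A CHR lay in 66.1% of the members' windows, against 12.1% of 15227 windows of genes in the deposited log2 table and 16.4% of all 35116 windows. Within 100 bases before to 50 bases after the start the shares were 61.0%, 5.04% and 7.37%. For CCAAT they were 69.5%, 34.7% and 34.6% over the whole window, and both elements stood together in 50.8%, 4.85% and 6.38%. The falls at 24 h of members with and without a CHR lay close together. The median in shIRE1 clone 1 was -1.52 over 36 members with one in any window and -1.47 over 11 without, and in clone 3 it was -1.17 and -1.25. These matches describe letters in a window and are not mapped binding sites.

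Among CDK1, the mitotic cyclins and the CDC25 phosphatases, 7 of 7 fell at 24 h in shIRE1 clone 1 and 6 of 7 in clone 3. CDK1, the kinase that drives entry into mitosis, stood at 152, 143 and 139 CPM at 0 h in clone 1 and at 39.2, 38.1 and 32.7 CPM at 24 h. Its levels in clone 3 were 147, 140 and 129 CPM at 0 h and 33.7, 32.2 and 29.4 CPM at 24 h. The groups lay far apart in both clones, a log2 change of -1.98 ± 0.062 (SE, 3.95-fold, adjusted p = 4.05e-15) in clone 1 and -2.14 ± 0.078 (4.39-fold, adjusted p = 3.95e-11) in clone 3. CCNB1, the cyclin that activates CDK1, went from 305 to 335 CPM to 113 to 118 CPM in clone 1 and from 228 to 269 CPM to 100 to 109 CPM in clone 3, which is 36.2% and 42.7% of the 0 h level. CDC25B was the member that fell least. Its 0 h levels in clone 1 were 222, 229 and 231 CPM and its 24 h levels 139, 149 and 148 CPM, a log2 change of -0.65 ± 0.043 (adjusted p = 1.8e-10). In clone 3 it stood at 205, 197 and 198 CPM and then at 159, 191 and 186 CPM, a log2 difference of -0.17 ± 0.074 that did not pass the test at 24 h (adjusted p = 0.073), although the groups did not overlap. It was lower at 72 h in clone 3, at 164, 164 and 142 CPM (log2 change -0.37 ± 0.074, adjusted p = 0.000585).

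The mitotic kinases and the chromosomal passenger complex, which corrects faulty attachments of chromosomes to the spindle, fell together, 6 of 6 in each shIRE1 clone at 24 h. PLK1, a kinase needed from mitotic entry to cytokinesis, went in clone 1 from 142, 154 and 155 CPM to 43.3, 45.2 and 47.2 CPM. In clone 3 it went from 101, 95.3 and 103 CPM to 47.1, 57.7 and 58.3 CPM. The 24 h levels of both clones were close together whereas the 0 h levels were not, and the log2 changes were -1.74 ± 0.058 (adjusted p = 8.02e-15) and -0.88 ± 0.078 (adjusted p = 2.88e-07). CDCA8 (borealin), a subunit of the passenger complex, had the largest mean change of this role. It went from 129, 137 and 130 CPM to 37.5, 38.1 and 38.0 CPM in clone 1 (log2 change -1.81 ± 0.042, adjusted p = 1.44e-16) and from 110, 106 and 102 CPM to 39.3, 38.6 and 40.9 CPM in clone 3 (-1.43 ± 0.055, adjusted p = 6.05e-11). The scaffold of the complex, INCENP, changed least here, by -1.22 in clone 1 and -0.42 in clone 3.

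All 5 genes of the spindle checkpoint, which holds anaphase until chromosomes are attached, fell at 24 h in both shIRE1 clones. TTK (MPS1), the kinase at the top of the checkpoint, went from 124, 124 and 112 CPM to 41.2, 39.0 and 38.5 CPM in clone 1 and from 87.2, 86.9 and 81.6 CPM to 39.8, 34.1 and 30.3 CPM in clone 3. These are log2 changes of -1.60 ± 0.052 (adjusted p = 6.52e-15) and -1.30 ± 0.091 (adjusted p = 2.21e-08). BUB3, which docks the checkpoint kinases on the kinetochore, stood at 286, 288 and 269 CPM and then at 175, 169 and 162 CPM in clone 1. Its clone 3 levels were 289, 262 and 244 CPM and then 166, 152 and 153 CPM. BUB3 moved alike in both clones, by -0.74 ± 0.039 (adjusted p = 8.48e-12) and -0.76 ± 0.058 (adjusted p = 4.9e-08), and only CDC25B had a smaller mean fall among the 55.

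Genes of anaphase onset and cohesion fell in both shIRE1 clones as well, 5 of 5 at 24 h. UBE2C, the ubiquitin-conjugating enzyme of the anaphase-promoting complex, went from 75.4, 79.8 and 74.7 CPM to 24.5, 25.2 and 24.5 CPM in clone 1 (log2 change -1.64 ± 0.052, adjusted p = 4.43e-15). In clone 3 it went from 75.1, 60.1 and 59.0 CPM to 27.2, 23.5 and 25.0 CPM (-1.37 ± 0.087, adjusted p = 7.27e-09). ESPL1 (separase), the protease that cuts cohesin, stood at 124, 128 and 129 CPM and then at 40.9, 41.6 and 48.6 CPM in clone 1 (-1.54 ± 0.069, adjusted p = 7.27e-13). Its levels in clone 3 were 86.3, 110 and 110 CPM and then 47.4, 59.3 and 57.9 CPM (-0.90 ± 0.10, adjusted p = 3.62e-06), so that clone 3 lost less. CDC20, the activator of the anaphase-promoting complex, showed the widest gap between the clones, falling to 27.5% of the 0 h level in clone 1 and to 51.5% in clone 3. Its pseudogene CDC20P1 held up to 877 counts in a library, so that reads may have been split between these copies.

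The 8 kinetochore and centromere genes all fell in both clones at 24 h. SPC25, a subunit of the NDC80 complex that grips microtubules, had the largest mean fall of the 55. It went from 34.9, 33.6 and 31.8 CPM to 7.27, 9.79 and 6.38 CPM in clone 1 and from 34.0, 32.1 and 31.7 CPM to 8.91, 6.17 and 6.96 CPM in clone 3. Both clones thus ended at less than 10 CPM, with log2 changes of -2.10 ± 0.11 (4.27-fold, adjusted p = 4e-12) and -2.17 ± 0.11 (4.5-fold, adjusted p = 9.97e-10). CENPF, a large kinetochore protein of G2 and mitosis, went from 294, 282 and 265 CPM to 108, 91.5 and 94.1 CPM in clone 1 (-1.52 ± 0.054, adjusted p = 2.25e-14). In clone 3 its 0 h libraries spread widely, at 128, 214 and 201 CPM, above 98.4, 103 and 99.3 CPM at 24 h, and the change of -0.86 ± 0.13 (adjusted p = 9.92e-05) was the smallest of this role there.

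Kinesins and spindle assembly factors, the largest role, fell in 12 of 12 cases in both shIRE1 clones at 24 h. Their medians were -1.43 in clone 1 and -1.22 in clone 3. KIF4A, a motor that organizes the anaphase midzone, fell most, from 74.5, 77.1 and 70.3 CPM to 19.9, 19.4 and 20.8 CPM in clone 1 and from 59.8, 67.0 and 62.9 CPM to 21.2, 21.0 and 20.8 CPM in clone 3. TPX2, which activates AURKA on the spindle, stood at 378, 371 and 351 CPM and then at 105, 105 and 103 CPM in clone 1, and at 254, 273 and 258 CPM and then at 112, 110 and 106 CPM in clone 3. For both genes the 24 h libraries of the 2 clones nearly coincide. The log2 changes of KIF4A were -1.89 ± 0.054 (adjusted p = 1.21e-15) and -1.60 ± 0.078 (adjusted p = 4.45e-10), and those of TPX2 -1.82 ± 0.040 (adjusted p = 5.81e-17) and -1.27 ± 0.058 (adjusted p = 2.5e-10).

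In the midzone and cytokinesis group 4 of 4 fell in both clones. ANLN (anillin), a scaffold of the contractile ring, went from 50.3, 48.9 and 45.7 CPM to 13.9, 11.1 and 11.2 CPM in clone 1 (log2 change -2.00 ± 0.079, adjusted p = 1.11e-13) and from 38.1, 44.8 and 44.1 CPM to 13.7, 13.9 and 12.6 CPM in clone 3 (-1.67 ± 0.090, adjusted p = 1.33e-09). PRC1, which bundles the antiparallel microtubules of the midzone, had nearly the same change in both clones. Its levels were 119, 116 and 119 CPM and then 34.1, 34.4 and 34.3 CPM in clone 1, and 125, 126 and 118 CPM and then 36.0, 34.6 and 36.9 CPM in clone 3. The change was -1.79 in each clone (SE 0.048 and 0.056, adjusted p = 5.67e-16 and 9.97e-12). RACGAP1, a partner of KIF23 in the centralspindlin complex, went from 181 to 186 CPM to 72.6 to 76.1 CPM in clone 1 and from 161 to 172 CPM to 74.3 to 79.0 CPM in clone 3.

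Condensin subunits, TOP2A and MKI67, which shape and coat mitotic chromosomes, fell in 6 of 6 cases in both clones. NCAPH, the kleisin of condensin I, went from 115, 116 and 111 CPM to 30.2, 29.7 and 31.7 CPM in clone 1 (log2 change -1.90 ± 0.047, adjusted p = 2.95e-16) and from 89.6, 88.1 and 87.4 CPM to 31.8, 31.5 and 31.8 CPM in clone 3 (-1.49 ± 0.056, adjusted p = 5.46e-11). TOP2A, the topoisomerase that untangles sister DNA, stood at 780, 772 and 717 CPM and then at 280, 259 and 253 CPM in clone 1 (-1.52 ± 0.045, adjusted p = 2.03e-15). Its clone 3 levels were 569, 712 and 670 CPM and then 273, 251 and 243 CPM (-1.35 ± 0.083, adjusted p = 5.1e-09).

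Both transcription factors fell in both clones. MYBL2 (B-MYB) went from 895, 949 and 981 CPM to 233, 263 and 271 CPM in clone 1 (log2 change -1.89 ± 0.062, adjusted p = 6.95e-15). In clone 3 it went from 562, 579 and 625 CPM to 260, 305 and 279 CPM (-1.07 ± 0.070, adjusted p = 1.08e-08). Clone 3 started from a lower level, and the 24 h ranges of both clones overlapped. FOXM1 went from 210 to 217 CPM to 61.3 to 65.2 CPM in clone 1 and from 146 to 160 CPM to 60.9 to 73.4 CPM in clone 3, with log2 changes of -1.78 and -1.14.

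**Figure D2:**
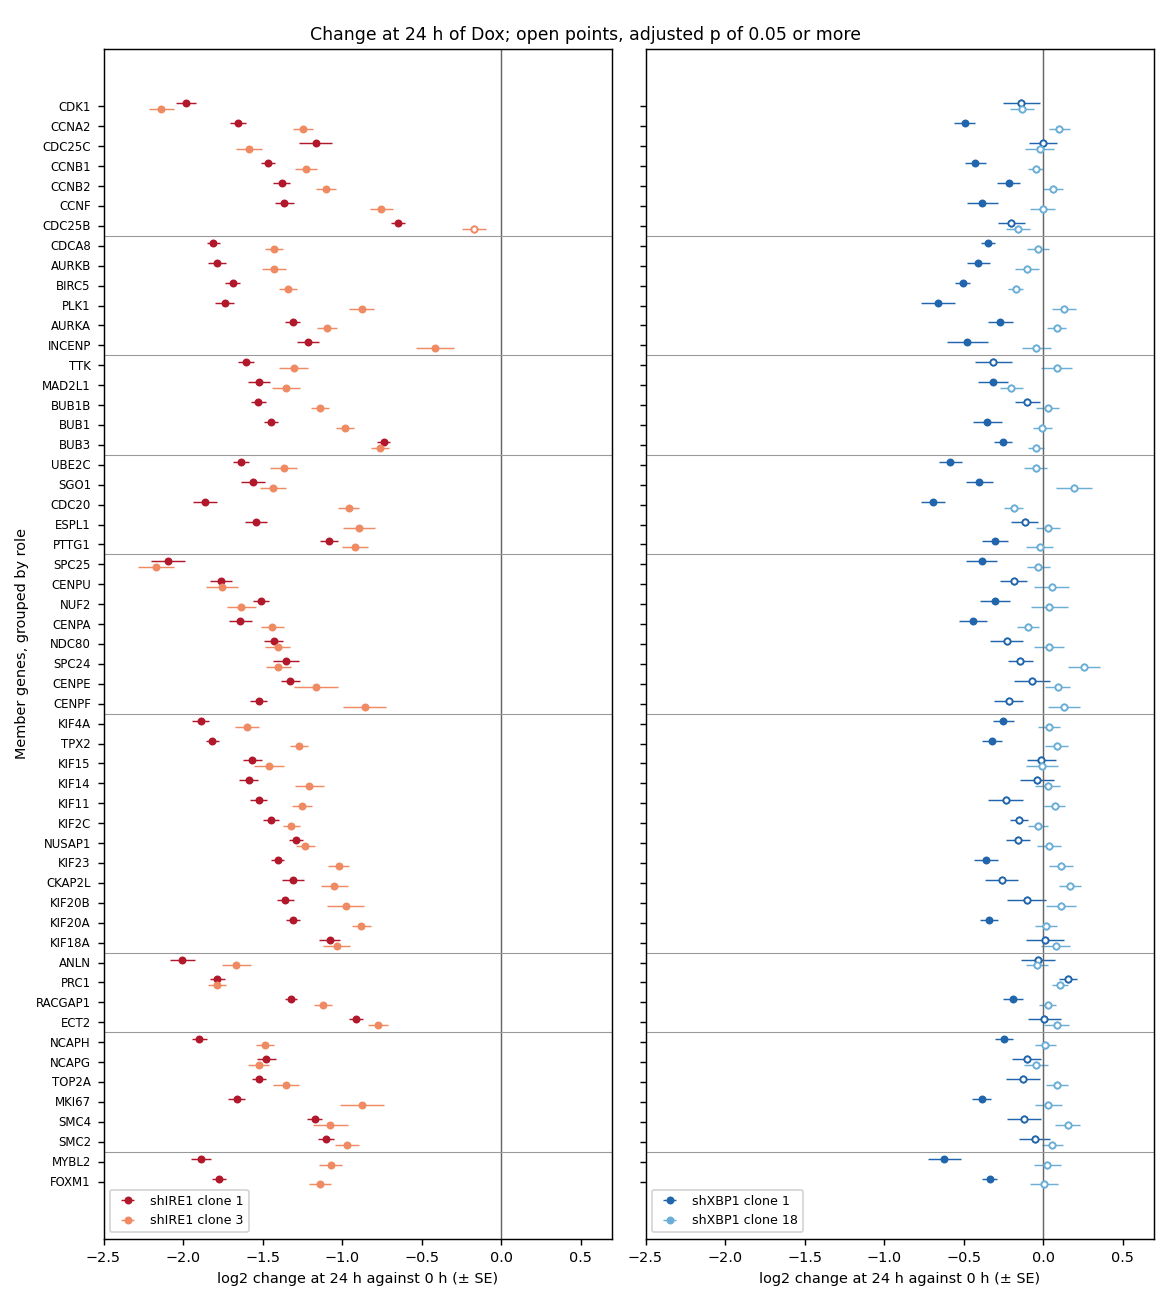
Log2 change at 24 h against 0 h (x axis, points with ± SE from edgeR) of each of the 55 genes (y axis, grouped by role) in the shIRE1 clones (left) and the shXBP1 clones (right), with open points where the adjusted p is 0.05 or more. The shIRE1 changes run from -2.17 to -0.17, and the shXBP1 changes from -0.69 to 0.26.

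Ranked by the mean change of both shIRE1 clones at 24 h, SPC25, CDK1, ANLN and PRC1 led and CDC25B, BUB3, INCENP and ECT2 came last. Across the 55 genes the changes of the 2 clones had a Pearson r of 0.66 and a Spearman rho of 0.55, given as a description, since genes are not independent replicates.

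The clones differed before Dox. At 0 h, 41 of 55 members were lower in shIRE1 clone 3 than in clone 1 and 0 were higher, with a median difference of -0.28 (19.2% of all genes were called lower). CDC20 differed most, at 74.8 to 79.8 CPM in clone 3 and 131 to 145 CPM in clone 1, a log2 difference of -0.85 ± 0.073 (adjusted p = 2.39e-12). At 24 h of Dox, a comparison added after the data had been seen, 0 members were lower in clone 3 (12 of 55 differed at an unadjusted p under 0.05 in edgeR) and 3 were higher, namely CDC25B by 0.30, ESPL1 by 0.33 and INCENP by 0.42, while 2.03% of all genes were called lower and 1.42% higher. The median difference between the clones was then -0.03, and CDC20 stood at 33.5 to 43.6 CPM in clone 1 and 36.1 to 41.5 CPM in clone 3. The changes themselves differed accordingly. In the fit of all 48 libraries the change at 24 h was weaker in clone 3 for 26 members and stronger for 1, CDC25C (12.7% of all genes were called higher in this difference), and the largest differences were those of CDC20 (0.91 ± 0.10, adjusted p = 1.18e-08), PLK1 (0.87 ± 0.12, adjusted p = 5.91e-07) and MYBL2 (0.82 ± 0.12, adjusted p = 1.82e-06).

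**Figure D3:**
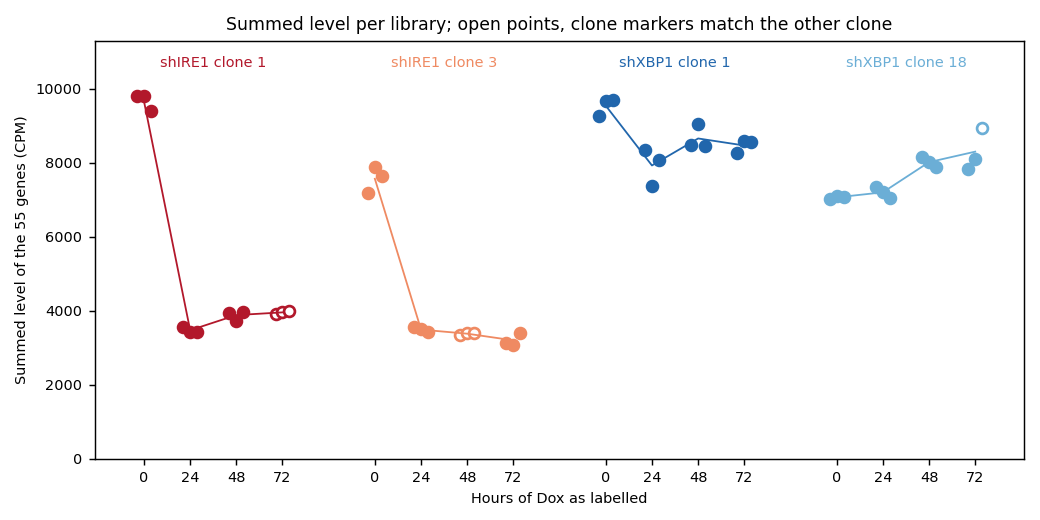
Summed level of the 55 genes (y axis, CPM) in each of the 48 libraries (points) by clone and labelled hours of Dox, with lines through the group means and open points for the 7 libraries whose clone markers match the other clone. The shIRE1 clones start at 9390 to 9810 CPM (clone 1) and 7180 to 7890 CPM (clone 3) and lie between 3060 and 3980 CPM from 24 h on, whereas the shXBP1 clones stay between 7020 and 9700 CPM.

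The low level held through 72 h. At 48 h 55 of 55 members were lower than at 0 h in shIRE1 clone 1 (median -1.38, 31.5% of all genes called lower), and at 72 h 55 of 55 in clone 3 (median -1.40, 30.5%). In the libraries that went against their clone labels 55 of 55 were lower as well, with medians of -1.36 for those labelled clone 1, 72 h (31.1% of all genes) and -1.29 for those labelled clone 3, 48 h (31.6%). Set against the 0 h libraries of the other shIRE1 clone, a comparison chosen after the data had been seen, they gave 55 of 55 lower again, with medians of -1.06 and -1.65.

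Between 24 and 48 h part of the members rose in shIRE1 clone 1. TOP2A rose most, from 253 to 280 CPM at 24 h to 355 to 395 CPM at 48 h (log2 change 0.51 ± 0.045, adjusted p = 7.51e-08), and BUB1, a checkpoint kinase, rose by 0.39 ± 0.042 (adjusted p = 1.05e-06). In all, 28 of 55 were higher (16% of all genes) and only PTTG1 (securin), the inhibitor of separase, was lower, from 24.2 to 25.3 CPM to 17.2 to 18.8 CPM (-0.45 ± 0.060, adjusted p = 1.39e-05). The 28 became 13 in the fit of all 48 libraries. In clone 3 the libraries labelled 48 h showed 10 members lower than at 24 h and 2 higher, BUB1 and TOP2A. The 10 are a share near that of all genes, of which 17.4% were called lower. The share of all genes called higher after 24 h in clone 3 is not given here. The 10 were 5 without 48 h replicate 1 and 6 without 48 h replicate 3. Since those libraries go against their label, 72 h was also compared with 24 h, after the data had been seen: 21 members were lower (17.1% of all genes) and 2 higher in clone 3, with a median of -0.18. BUB1 and TOP2A were again the 2 that rose, by 0.37 ± 0.057 (adjusted p = 0.000124) and 0.25 ± 0.082 (adjusted p = 0.0288), and PTTG1 fell by 0.63 ± 0.085 on the log2 scale (adjusted p = 4.38e-05).

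Between 48 and 72 h little moved as labelled. CDC25B alone rose in clone 1, from 136 to 146 CPM to 161 to 165 CPM (log2 change 0.21 ± 0.043, adjusted p = 0.0186, 0.869% of all genes called in either direction), and this call was lost without 48 h replicate 2 or 3 or without 72 h replicate 1 or 2. In clone 3, 0 of 55 passed in edgeR (0.936% of all genes), 15 had an unadjusted p under 0.05 and DESeq2 called 1. Without 24 h replicate 1 of clone 3 edgeR called 2. Both steps rest on the libraries that go against their labels.

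**Figure D4:**
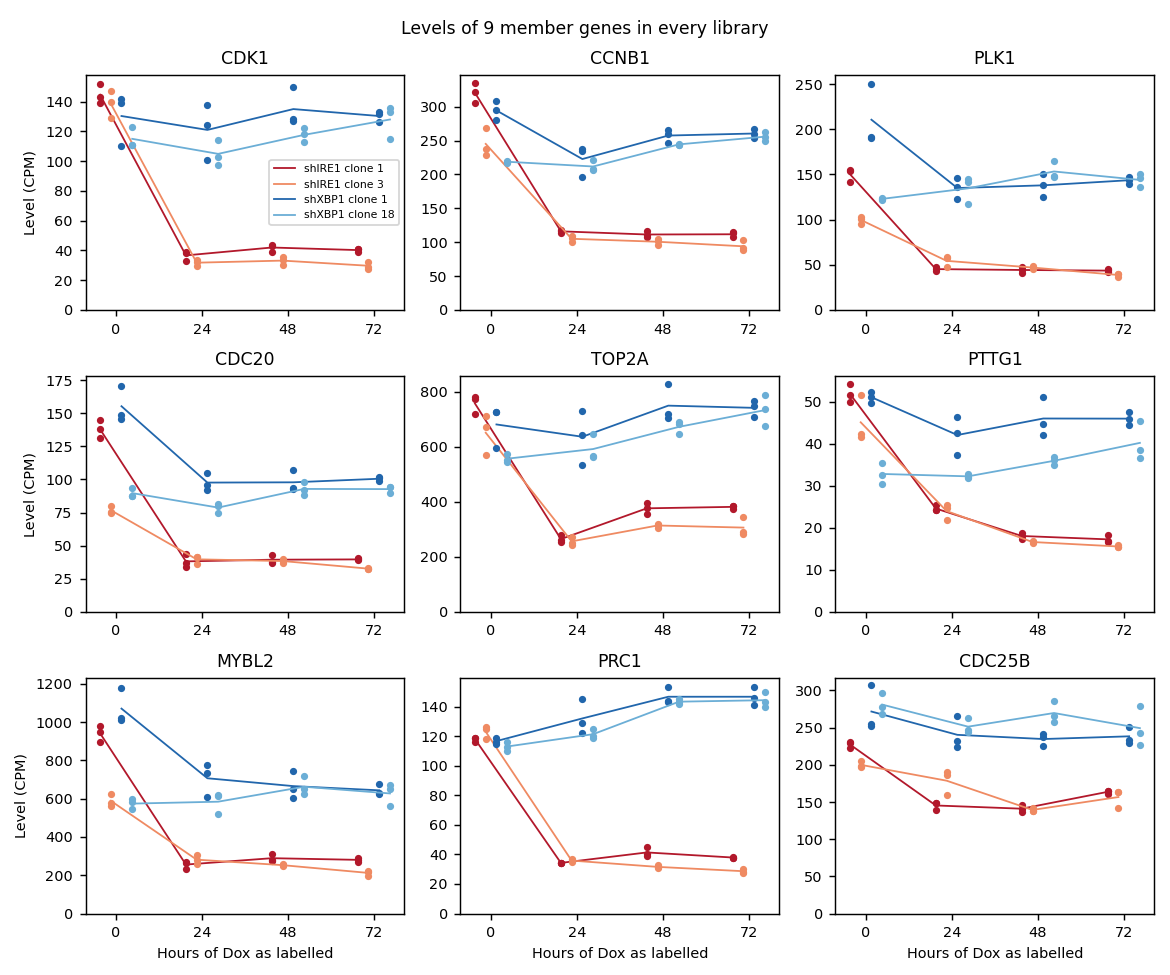
Levels (y axes, CPM, from 0) of 9 members in every library (points) by labelled hours of Dox (x axes), with lines through the group means of the 4 clones. CDK1 and PRC1 drop in both shIRE1 clones, PLK1, CDC20 and MYBL2 also drop in shXBP1 clone 1, PTTG1 goes on falling after 24 h in the shIRE1 clones, and CDC25B moves least.

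Silencing of XBP1 gave a smaller and clone-dependent picture. In shXBP1 clone 1, 29 of 55 members were lower at 24 h and 0 higher (12.8% of all genes called lower), with a median change of -0.25. At 48 h 18 were lower and 1 higher (15.5%), and at 72 h 21 were lower and 1 higher (16.8%), with medians of -0.13 and -0.17. The counts varied by role: at 24 h 6 of 6 mitotic kinases and passenger genes, 4 of 5 genes of anaphase onset and 2 of 2 transcription factors fell, against 4 of 12 kinesins and spindle factors and 1 of 4 cytokinesis genes. With only the 6 libraries compared in the fit, 15 were lower at 24 h.

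PLK1, CDC20 and MYBL2 moved most in shXBP1 clone 1. PLK1 stood at 250, 192 and 190 CPM at 0 h and at 123, 146 and 136 CPM at 24 h (log2 change -0.66 ± 0.11, adjusted p = 0.000848). CDC20 went from 171, 146 and 149 CPM to 91.9, 96.0 and 105 CPM (-0.69 ± 0.077, adjusted p = 8.16e-05). MYBL2 went from 1180, 1010 and 1020 CPM to 607, 776 and 736 CPM (-0.62 ± 0.10, adjusted p = 0.00119) and stood at 622 to 678 CPM at 72 h (-0.75 ± 0.10, adjusted p = 0.000251). In all 3 genes no treated library reached the lowest 0 h library. CDK1, the gene that fell to 25.3% in shIRE1 clone 1, stood at 110, 142 and 139 CPM at 0 h and at 138, 101 and 124 CPM at 24 h in shXBP1 clone 1, where the groups overlapped (log2 difference -0.14 ± 0.12, adjusted p = 0.415). PRC1 went the other way. It rose from 115, 119 and 116 CPM at 0 h to 143, 153 and 144 CPM at 48 h (0.32 ± 0.059, adjusted p = 0.00224) and 141, 153 and 146 CPM at 72 h (0.31 ± 0.059, adjusted p = 0.00214), and was the 1 member that rose at both times.

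Clone 18 of shXBP1 did not show the fall. At 24 h edgeR called 0 of 55 members in either direction (6 had an unadjusted p under 0.05, and DESeq2 called 1), while 0.291% of all genes were called higher and 1.30% lower. At 48 h 12 were higher (2.28% of all genes) and at 72 h 32 (4.41%), and 0 were lower, with medians of 0.19 and 0.29. Kinesins and cytokinesis genes made up much of the 72 h count, 11 of 12 and 4 of 4. Without 72 h replicate 3, KIF4A, KIF11, KIF15 and KIF18A did not pass at 72 h (edgeR adjusted p = 0.115, 0.0576, 0.224 and 0.0828). The 4 cytokinesis genes still passed. PRC1 rose from 113, 110 and 116 CPM at 0 h to 145, 143 and 142 CPM at 48 h (log2 change 0.34 ± 0.050, adjusted p = 0.00138) and 143, 140 and 150 CPM at 72 h (0.36 ± 0.050, adjusted p = 0.000627). TPX2 rose from 209, 222 and 220 CPM to 265, 275 and 321 CPM at 72 h (0.41 ± 0.071, adjusted p = 0.00365), and TOP2A from 544, 574 and 550 CPM to 675, 736 and 786 CPM (0.40 ± 0.069, adjusted p = 0.00336). The third 72 h library, which goes against its clone label, was the highest of the 3 in each of these genes. Without it 22 members were higher at 72 h (median 0.20), 26 at 48 h, and 3 rather than 0 between 24 and 48 h. Both counts also moved with single libraries: without 0 h replicate 1, 2 or 3 the 72 h count was 9, 14 or 8 and the 48 h count 2, 3 or 2, and without 48 h replicate 1 or 2 the 48 h count was 1. With only the 6 libraries compared in the fit, 32 members were higher at 48 h and 5 at 72 h.

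Between consecutive times no member of either shXBP1 clone passed the test in edgeR. In clone 1 the counts were 0 between 24 and 48 h (0.00% of all genes called in either direction, 21 members at an unadjusted p under 0.05, 0 in DESeq2) and 0 between 48 and 72 h (0.0120% of all genes, 0 members at an unadjusted p under 0.05, 0 in DESeq2). In clone 18 they were 0 between 24 and 48 h (0.00% of all genes, 25 members at an unadjusted p under 0.05, 3 in DESeq2) and 0 between 48 and 72 h (0.00% of all genes, 2 members at an unadjusted p under 0.05, 0 in DESeq2).

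Before Dox, 45 of 55 members were lower in shXBP1 clone 18 than in clone 1 and 0 higher (24.5% of all genes called lower), with a median difference of -0.41. MYBL2 stood at 546 to 596 CPM in clone 18 and at 1010 to 1180 CPM in clone 1, a log2 difference of -0.90 ± 0.086 (adjusted p = 2.89e-11). At 48 h, a comparison added after the data had been seen, 17 members were lower in clone 18 (16% of all genes) and 2 higher, AURKA and CDC25B, with a median of -0.15. By then MYBL2 stood at 622 to 716 CPM in clone 18 and at 602 to 742 CPM in clone 1. The change from 0 h differed between these clones, being higher in clone 18 for 23 members at 24 h (6.79% of all genes), 23 at 48 h (11.0%) and 36 at 72 h (11.0%), and lower for 0 at each time. PLK1 showed the largest difference at 24 and 48 h, of 0.77 ± 0.12 (adjusted p = 8.78e-06) and 0.93 ± 0.12 (adjusted p = 2.47e-07), and MYBL2 at 72 h, of 0.86 ± 0.12 (adjusted p = 1.19e-06). Without clone 18, 72 h, replicate 3 these counts were 29, 32 and 29.

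A direct test set the mean change of both shIRE1 clones against the mean change of both shXBP1 clones. All 55 members had the lower value in the shIRE1 clones at 24 h (median difference -1.21, 19.7% of all genes called lower), at 48 h (-1.35, 28.0%) and at 72 h (-1.42, 27.4%). At 24 h CDK1, SPC25 and PRC1 had the largest differences, of -1.93 ± 0.095 (adjusted p = 6.08e-20), -1.93 ± 0.11 (adjusted p = 2.11e-18) and -1.93 ± 0.052 (adjusted p = 4.05e-28). CDC25B had the smallest, of -0.24 ± 0.073 (adjusted p = 0.00854). Without the 7 libraries that go against their clone labels, with shIRE1 clone 1 alone at 48 h and clone 3 alone at 72 h, 55 and 55 of 55 were lower, with medians of -1.43 and -1.40. This version was chosen after the data had been seen.

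The difference between the changes of the shIRE1 clones, called for 27 members at 24 h, was called for 18 at 48 h and 12 at 72 h as labelled. At 48 h 14 members were higher in clone 3 and 4 lower (13.6% of all genes called higher and 17.3% lower), and at 72 h 4 were higher and 8 lower (12% of all genes called higher and 15.5% lower). Taken in both directions, the counts at 48 and 72 h were near the share of all genes. Both counts rest on the 6 shIRE1 libraries that go against their labels and cannot be had without them. At 72 h the 4 became 7 without clone 3, 0 h replicate 2, 8 without clone 3, 72 h replicate 2 and 7 without shXBP1 clone 18, 72 h replicate 3. The 8 lower became 5 without clone 1, 0 h replicate 2, clone 1, 72 h replicate 3 or clone 3, 0 h replicate 2, and 4 without clone 1, 0 h replicate 3, clone 3, 72 h replicate 1 or clone 3, 72 h replicate 2. At 48 h the 4 lower became 2 without clone 1, 48 h replicate 1.

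Other genes of the pathway were read from lists that hold no member. Of all genes tested at 24 h, 29.0% were called lower in shIRE1 clone 1 and 23.3% in clone 3. Of 29 other kinetochore and centromere genes, 28 fell at 24 h in shIRE1 clone 1 (median -1.06) and 26 in clone 3 (median -0.98). MIS18A, which prepares centromeres for CENPA, fell most, by 2.07 on the log2 scale in each clone. Of 28 other spindle and cytokinesis genes 27 were tested, and 27 fell in each clone (medians -1.40 and -1.05). DEPDC1B, a regulator of adhesion at mitotic entry, went from 88.9 to 94.9 CPM to 24.7 to 26.9 CPM in clone 1 and from 67.0 to 69.7 CPM to 23.7 to 25.7 CPM in clone 3. Among 15 other genes of anaphase, cohesion and condensin, 15 fell in clone 1 and 14 in clone 3 (medians -1.47 and -1.07). ESCO2, which acetylates cohesin in S phase, went from 59.9 to 66.6 CPM to 13.5 to 13.9 CPM in clone 1 and from 43.1 to 44.6 CPM to 11.8 to 15.9 CPM in clone 3.

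Other machinery of the same steps moved less. Of the 15 subunits of the anaphase-promoting complex, 5 fell and 1 rose in each clone, with medians of -0.09 and -0.10, a share of lower calls near that of all genes (29.0% in clone 1 and 23.3% in clone 3). The gene that rose was ANAPC16 in clone 1 (log2 change 0.23, adjusted p = 0.000494) and ANAPC2 in clone 3 (0.41, adjusted p = 0.0267), and ANAPC16 fell in clone 3 by 0.27 on the log2 scale (adjusted p = 0.0055). ANAPC11, the RING subunit, had the largest mean fall, from 18.1 to 22.6 CPM to 9.09 to 11.6 CPM in clone 1 and from 17.5 to 20.7 CPM to 11.9 to 13.7 CPM in clone 3. Cohesin and its loaders lay between, with 9 of 10 lower and 1 higher in clone 1 (median -0.58) and 8 lower and 1 higher in clone 3 (median -0.50). The loader subunit MAU2 was the gene that rose in both, by 0.20 (adjusted p = 0.00442) and 0.30 (adjusted p = 0.00733), and STAG1 had the largest mean fall, by 1.03 and 0.56 on the log2 scale.

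The MuvB core, E2F4 and the pocket proteins are 11 genes that carry the repression and activation named above. In shIRE1 clone 1, 7 were lower and 3 higher, and in clone 3, 7 were lower and 1 higher. Of all genes, 29.0% were called lower in clone 1 and 23.3% in clone 3. The share of all genes called higher is not given here, so the counts of listed genes that rose have no background beside them. Among the 11 genes RBL2 (p130), a pocket protein of the repressive complex in resting cells, rose by 0.79 in clone 1 (adjusted p = 4.07e-11) and stood at a log2 difference of -0.03 in clone 3 (adjusted p = 0.693). It rose by 0.70 in shXBP1 clone 1 too (adjusted p = 9.25e-05). TFDP2, an E2F partner, rose in both shIRE1 clones, by 0.51 (adjusted p = 1.37e-08) and 0.16 (adjusted p = 0.0145). MYBL1 (A-MYB) had the largest mean fall, from 3.90 to 4.05 CPM to 0.594 to 1.35 CPM in clone 1 and from 1.94 to 2.86 CPM to 0.744 to 0.944 CPM in clone 3. RBL2 and TFDP2 were named after their values had been seen. DNA replication genes, which peak earlier in the cycle, fell by about as much as the members, with 34 of 34 lower in clone 1 (median -1.46) and 33 of 34 in clone 3 (median -1.12). CDC6, a loader of the replicative helicase, went from 268 to 288 CPM to 46.2 to 50.2 CPM in clone 1 and from 185 to 193 CPM to 41.9 to 42.1 CPM in clone 3, log2 changes of -2.55 ± 0.045 and -2.17 ± 0.056.

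In shXBP1 clone 1 at 24 h, 12 of 29 other kinetochore genes, 12 of 27 other spindle genes, 8 of 15 other anaphase genes, 1 of 10 cohesin genes and 20 of 34 replication genes fell, 0 of 15 subunits of the anaphase-promoting complex were called, and the MuvB list had 1 lower and 3 higher. Of all genes, 12.8% were called lower there, and the share called higher is not given here. In shXBP1 clone 18, 2 of 34 replication genes fell, no gene of the other lists was called in edgeR, and 1.30% of all genes were called lower.

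**Figure D5:**
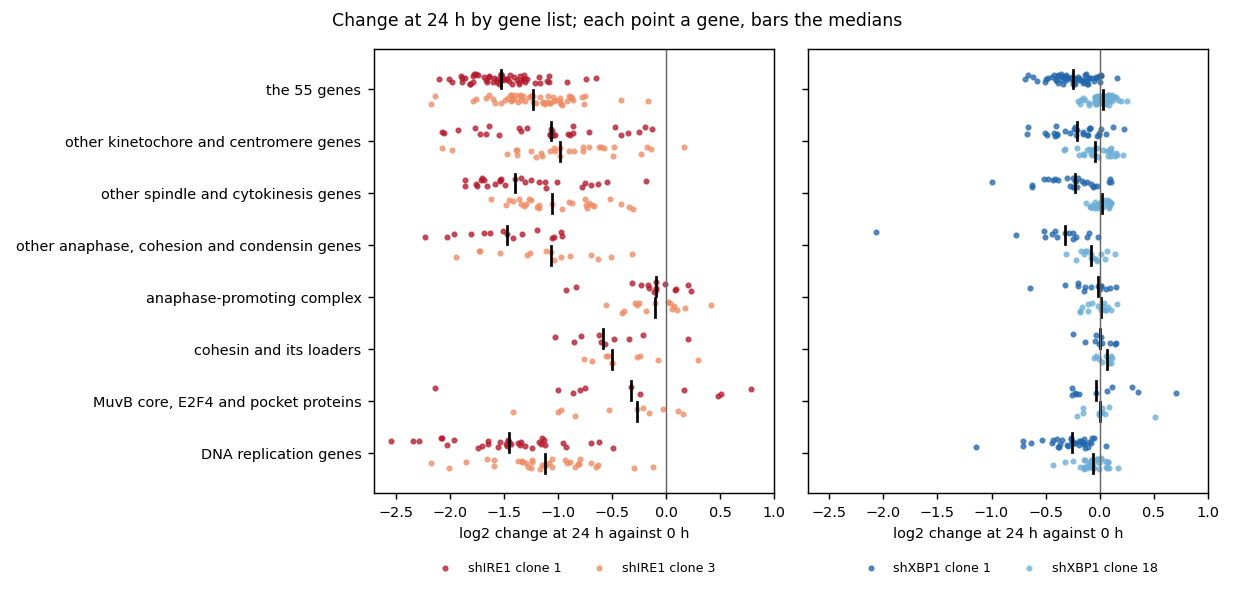
Log2 change at 24 h against 0 h (x axis) of each gene (points, spread vertically at random) in the 55 members and 7 other lists (y axis), with black bars at the medians, for the shIRE1 clones (left) and the shXBP1 clones (right). In shIRE1 clone 1 the members lie at a median of -1.52, DNA replication genes at -1.46 and the anaphase-promoting complex at -0.09.

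For 22 of the 55 members an exon overlaps an exon of another gene in GENCODE 44, on the opposite strand for 20 and on the same strand for 4. The sources used here do not give the strand setting of the counting, so that reads of, for example, KIF20A and BRD8 or PLK1 and ERN2 may not be fully told apart.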

How the data were processed

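The authors sequenced TruSeq Stranded mRNA libraries single-end on a NovaSeq instrument and deposited a table of whole-number counts for 58302 genes in 48 libraries and a log2 CPM table of 18401 genes. Per the labels' processing notes GSNAP, R 4.1.3, edgeR 3.32.1, limma 3.46.0 and the build GRCh37/hg19 were used. The study's methods name GRCh38 for a related experiment, so no coordinate is given as the files' own, and the use of strand in counting is not stated. The deposited log2 values equal edgeR's log2 CPM (TMM, prior count 2) within 5e-14 and were used as deposited, for limma only.

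Groups follow the labels, whose treatment field gives hours. Counts were tested with edgeR 4.0.16 in R 4.3.3 (quasi-likelihood F test, TMM, filterByExpr with minimum count 10 and minimum total 15), in 1 fit of 12 libraries per clone, and in 1 fit of all 48 libraries for differences between clones or targets. P-values are two-sided, Benjamini-Hochberg adjusted across every gene in the fit, and called below 0.05. Values after ± are SE for log2 changes and SD for levels. CPM are TMM-scaled and relative to the rest of the library. The log2 change, its SE and the fold come from the fit. The median total count was 30776246.5, and 1 count at the lowest total is 0.0521 CPM. Alternatives were RLE size factors, no filter, DESeq2 1.42.0, a replicate block, limma 3.58.1 on the log2 table, other sets of libraries in the fit, and leaving out each library. Scripts were tested on simulated data.

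The lowest chi-square per gene between replicates of a group was 1.67, so that no library was counted as a duplicate. The highest was 62.1, between replicates 1 and 2 of shXBP1 clone 1 at 24 h. Replicate 1 of that clone at 0 h gave 43.2 and 43.6, and replicate 3 of shXBP1 clone 18 at 72 h gave 55.5 and 52. In the shIRE1 groups the values reached 24.4. The wider spread was that of part of the shXBP1 libraries. The other pairs of shXBP1 clone 18 reached 19.1, and shXBP1 clone 1 at 72 h gave 1.67 to 7.19. Replicate numbers do not pair libraries across times. The members and the other lists were chosen with earlier results of these data known. The text names, per role, the member with the highest mean log2 CPM and that with the largest mean change of the shIRE1 clones at 24 h, members of shIRE1 clone 3 not called at 24 h, the 3 largest differences between shIRE1 and shXBP1 changes at 24 h, and per other list the gene with the largest mean change. Other genes with values were named after those had been seen.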

Additional observations from a re-analysis of the deposited data

Results flagged for a closer look

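These results were singled out because a test of the difference itself passed between groups under the same contrast. The change from 0 h differed between the shIRE1 and the shXBP1 clones for 55 members at 24 h, 55 at 48 h and 55 at 72 h, always with the lower value in the shIRE1 clones. Of all genes, 19.7%, 28.0% and 27.4% were called lower in this difference at these times. Between the shIRE1 clones it differed for 27 members at 24 h, 18 at 48 h and 12 at 72 h. The counts at 48 and 72 h rest on the libraries labelled clone 1, 72 h and clone 3, 48 h, whose clone markers match the other clone.

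Between the shXBP1 clones it differed for 23 members at 24 h, 23 at 48 h and 36 at 72 h, with the higher value in clone 18 in each case. Of all genes, 6.79%, 11.0% and 11.0% were called higher in this difference at these times. The genes that follow were in addition called lower in clone 1 and higher in clone 18 against their own 0 h libraries. At 48 h the difference of clone 18 minus clone 1 was 0.63 on the log2 scale for CCNA2, a cyclin of S phase and G2, 0.93 for PLK1 and 0.47 for KIF20A, a cytokinesis kinesin. At 72 h it was 0.64 for CCNA2, 0.40 for CCNB1, 0.74 for SGO1, a protector of centromeric cohesion, 0.52 for KIF20A, 0.59 for KIF23, the kinesin of centralspindlin, 0.63 for TPX2 and 0.60 for FOXM1. The calls in clone 18 at 48 h move with single libraries, since leaving out each in turn gave 1 to 26 members higher instead of 12. At 0 h 45 of 55 members were lower in clone 18 than in clone 1, and these starting levels enter the difference of the changes. The 72 h values include the clone 18 library whose markers match clone 1. Without it the 72 h change of SGO1 in clone 18 (0.29, adjusted p = 0.0822) and that of FOXM1 (0.16, adjusted p = 0.0718) no longer passed the test against 0 h in edgeR.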

How the results depend on the processing

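The counts of members lower than 0 h in both shIRE1 clones, and of members that differed between shIRE1 and shXBP1 changes, stayed within 1.5 times under every alternative run, and no result reversed. With only the 6 libraries compared in the fit, the members lower in shXBP1 clone 1 at 24 h were 15 instead of 29, and those higher in shXBP1 clone 18 were 32 at 48 h instead of 12 and 5 at 72 h instead of 32. The clone 18 count at 48 h was 21 without the filter. With a replicate block it was 7, and the single call of shIRE1 clone 1 between 48 and 72 h became 0. The block moved no other count of members by over 1.5 times. The fit of all 48 libraries gave 13 instead of 28 members higher between 24 and 48 h in shIRE1 clone 1, 0 instead of 1 between 48 and 72 h there, and 2 instead of 0 between 24 and 48 h in shXBP1 clone 18, where DESeq2 gave 3. For members lower in shXBP1 clone 18 at 24 h both gave 1 instead of 0. In shIRE1 clone 3 between 48 and 72 h, 0 became 4 without the filter and 1 in DESeq2. Leaving out each library in turn gave 1 to 26 and 8 to 39 members higher in shXBP1 clone 18 at 48 and 72 h, 5 to 12 lower in shIRE1 clone 3 between 24 and 48 h, and 3 to 8 higher and 4 to 11 lower in shIRE1 clone 3 than in clone 1 for the 72 h change, 2 to 4 lower for the 48 h change, and 0 to 1 lower in shXBP1 clone 18 at 24 h, where the 1 came without 72 h replicate 3. For the steps it gave 0 to 1 between 48 and 72 h in shIRE1 clone 1, 0 to 2 in shIRE1 clone 3, and 0 to 3 between 24 and 48 h in shXBP1 clone 18. The cause of these shifts was not tested. With 3 flasks a group, a small difference in the shXBP1 clones may go uncalled.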
